A study of Mus musculus with 4 samples.

Results

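Peaks of Foxo1 binding were examined around 7 genes of cell cycle arrest, apoptosis and stress response in mouse regulatory T cells: Cdkn1b, Ccng2, Rbl2, Bcl2l11, Gadd45a, Txnip and Klf6. A peak was taken when its centre lay in a fixed window around the gene in build mm9, from 110 to 160 kb long and 920 kb in all. The windows held 80 of the 77652 deposited peaks and intervals: 27 of 16473 in the antibody list, 44 of 57748 in the streptavidin list and 9 of 3431 in the third list, which is named for both methods. The windows used positions only and no score. The antibody library came from regulatory T cells (nTreg in the labels) of wild-type B6 mice and was made with a Foxo1 antibody (Abcam, Ab39670). The streptavidin library came from nTreg cells of Foxo1tagBirA mice, in which the endogenous Foxo1 protein carries biotin, so that streptavidin captures it. An input library without antibody accompanied each of these, so 4 groups had 1 library each. That list is attached to the antibody input, and no values of the inputs themselves were analysed here. The ages of the mice, and whether animals were pooled, are not given in the sources used here. Peak lists hold no expression values, so the labelled cell type was not checked against marker genes.

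Foxo1 is a forkhead transcription factor that PI3K and Akt signalling keeps out of the nucleus, and that enters the nucleus when this signalling is low. In lymphocytes and other cells, nuclear Foxo proteins are known to hold cells in a resting state and to raise genes that restrain the cell cycle or promote death. Cdkn1b encodes the cyclin-dependent kinase inhibitor p27Kip1, Ccng2 the unconventional cyclin G2, and Rbl2 the retinoblastoma relative p130. Bcl2l11 encodes Bim, a pro-apoptotic BH3-only protein, and Gadd45a a stress protein induced by DNA damage. Txnip binds thioredoxin and restrains glucose uptake, and Klf6 is a zinc finger transcription factor.

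Forkhead proteins recognise a short core that can be read in promoter sequence. RefSeq promoters (build GRCm38.p6) were searched in the 250 bases before each gene start for GTAAACA, a forkhead core, and for CAAAACA, a core of the insulin response type, on both strands. The 4 sequences below are those of the 3 genes with a match, and that of Cdkn1b, whose window held the most shared regions. Capitals mark the matches, and all 4 genes lie on the plus strand.
Txnip (GRCm38.p6, chr3:96557707-96557956): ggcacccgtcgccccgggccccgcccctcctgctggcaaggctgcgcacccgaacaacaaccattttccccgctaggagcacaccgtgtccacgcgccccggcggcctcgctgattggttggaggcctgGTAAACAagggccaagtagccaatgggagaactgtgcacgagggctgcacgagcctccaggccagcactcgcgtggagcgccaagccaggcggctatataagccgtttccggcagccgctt
Bcl2l11 (GRCm38.p6, chr2:128125788-128126037): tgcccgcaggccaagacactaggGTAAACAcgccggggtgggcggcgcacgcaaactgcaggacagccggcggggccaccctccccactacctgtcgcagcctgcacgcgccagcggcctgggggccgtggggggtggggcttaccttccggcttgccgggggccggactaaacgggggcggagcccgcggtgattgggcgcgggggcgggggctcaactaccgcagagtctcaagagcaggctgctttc
Ccng2 (GRCm38.p6, chr5:93267323-93267572): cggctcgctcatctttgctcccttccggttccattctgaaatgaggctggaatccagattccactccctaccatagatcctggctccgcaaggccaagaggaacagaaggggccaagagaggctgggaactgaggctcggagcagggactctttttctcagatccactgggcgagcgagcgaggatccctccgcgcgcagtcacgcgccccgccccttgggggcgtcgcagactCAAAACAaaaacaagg
Cdkn1b (GRCm38.p6, chr6:134920151-134920400): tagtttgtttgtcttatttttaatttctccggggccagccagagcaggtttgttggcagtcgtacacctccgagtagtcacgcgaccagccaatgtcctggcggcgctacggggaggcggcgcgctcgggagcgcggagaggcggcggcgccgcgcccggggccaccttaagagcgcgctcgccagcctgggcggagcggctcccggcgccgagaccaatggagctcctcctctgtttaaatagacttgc
In Txnip the core GTAAACA ran from 121 to 115 bases before the start. In Bcl2l11 it ran from 227 to 221 bases before the first of its 2 listed starts, and the promoter of the other start had no match. In Ccng2 the core CAAAACA ran from 16 to 10 bases before the start. No match to either core was found in this stretch of Cdkn1b, Rbl2, Gadd45a or Klf6, and no 2 matches overlapped. Of 32851 promoters of this length, 3.17% held GTAAACA and 5.56% held CAAAACA. All 7 genes had an entry, so 2 of 7 held GTAAACA and 1 of 7 CAAAACA, against 3.54% and 6.38% of all 27025 genes with an entry. Of 31 further genes of the cell cycle, apoptosis and stress response, 25 had an entry and 3 held GTAAACA: Bbc3, the BH3-only protein Puma, Btg1, an antiproliferative gene, and Ccnd3, cyclin D3. None of these 25 held CAAAACA. These promoter coordinates belong to another build than the peaks, so which peaks lie in these promoters, in exons or in introns was not determined. The sequences under the peaks were not analysed here.

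Peaks were denser in the windows than on the autosomes as a whole, and more so in the antibody list. The 27 antibody peaks stood at 4.34 times the autosomal density (95% exact interval 2.86 to 6.31), and the 44 streptavidin peaks at 2.01 times (1.46 to 2.70). These Clopper-Pearson intervals, like the others here, cover counting error over peaks only and not the spread between animals or libraries, and peaks in a window are not independent of each other. The windows were laid around genes, the autosomal average takes in stretches without genes, and gene density was not compared. In the central 50% of each window lay 23 of the 27 antibody peaks and 28 of the 44 streptavidin peaks, at 7.39 and 2.56 times the autosomal density. With 50 kb added on both sides of every window the ratios were 3.01 and 1.66. With peaks of a list within 1 kb joined into 1, they were 3.38 and 1.86. Across all alternatives tried they ran from 3.01 to 7.39 and from 1.66 to 2.56.

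The genes differed in how many peaks surrounded them. The antibody list had 7 peaks in the Cdkn1b window, 7 at Bcl2l11, 6 at Txnip, 3 at Klf6, 2 at Ccng2, and 1 each at Gadd45a and Rbl2. At the autosomal density the same windows would hold 0.812, 1.08, 0.745, 0.880, 0.812, 0.812 and 1.08 antibody peaks. The ratio to that density was highest at Cdkn1b (8.62, 3.47 to 17.8), Txnip (8.06, 2.96 to 17.5) and Bcl2l11 (6.46, 2.60 to 13.3). It was 3.41 (0.703 to 9.96) at Klf6 and 2.46 (0.298 to 8.89) at Ccng2. At Gadd45a it was 1.23 (0.0312 to 6.86), and at Rbl2 0.923 (0.0234 to 5.14). These intervals count close peaks as independent. At Txnip 5 of 6 antibody peaks, and at Cdkn1b 4 of 7, had another antibody centre within 1 kb. The intervals are therefore not read as a test of any gene. The streptavidin list had 13 peaks at Bcl2l11, 8 each at Klf6 and Rbl2, 4 each at Cdkn1b, Ccng2 and Txnip, and 3 at Gadd45a. Its ratio was highest at Bcl2l11 (3.42, 1.82 to 5.85) and Klf6 (2.59, 1.12 to 5.11). The windows rich in antibody peaks were therefore not all rich in streptavidin peaks: Cdkn1b and Txnip had more antibody than streptavidin peaks, although the streptavidin list was the longer. That difference between the lists was not tested.

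**Figure D1:**
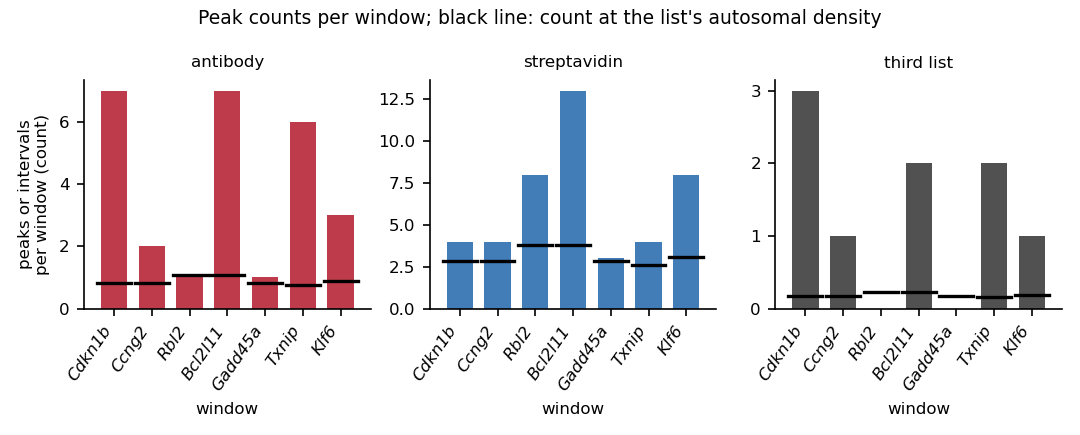
Number of peaks in each window (bars) in the antibody list, the streptavidin list and the third list, with a black line at the number that the list's mean autosomal density would give for a window of that length. Bars stand far above the line at Cdkn1b, Bcl2l11 and Txnip in the antibody list (7, 7 and 6 peaks), and Rbl2 and Gadd45a have no interval of the third list.

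Peaks of both methods that overlapped by at least 1 base were called shared. In the windows 9 of 27 antibody peaks were shared, or 33.3% (16.5 to 54.0), against 21.9% of the whole antibody list, a value inside this interval. Of the streptavidin peaks 9 of 44 were shared, or 20.5% (9.80 to 35.3), against 6.20% of the whole list, a value below this interval. These shares were not adjusted for the density of peaks in the windows, 4.34 times the autosomal density for antibody and 2.01 times for streptavidin. The 9 shared regions fell in 5 of the 7 windows: 3 at Cdkn1b, 2 at Bcl2l11, 2 at Txnip, 1 at Ccng2 and 1 at Klf6. Rbl2 and Gadd45a had none. Of 20038 autosomal stretches of 120 kb, laid end to end, 12.7% held the centre of a shared region and 3.26% held at least 2, as did 3 of the 7 windows. These stretches take in parts without genes and were not matched to the windows in length or gene density. The difference is therefore not read as a trait of these genes.

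Most peaks in the windows had ordinary scores, and a few had very high ones. The score is the authors' own value for each peak and ranks peaks within a list only. The antibody peaks in the windows had a median score of 161 (quartiles 120 and 441), against 167 in the whole list, and a median width of 235 bases, against 233. The streptavidin peaks had a median score of 80.0, against 74.7, and a median width of 222 bases, against 221. In the upper tail, 7 of 27 antibody peaks, or 25.9% (11.1 to 46.3), had a score of at least 419 and so fell in the top decile, which holds 10.0% of the list. For streptavidin 4 of 44 peaks, or 9.09% (2.53 to 21.7), reached the top decile at 117, against 10.1% of the list. A top-decile antibody peak was present in 5 of the 7 windows and in 6.88% of the 120 kb stretches. Of these stretches, 58.8% held no antibody peak of any score. The windows were laid around genes, whereas the stretches take in parts without genes, and the 2 were not matched in length or gene density. The difference in top-decile peaks is therefore not read as a trait of these genes.

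**Figure D2:**
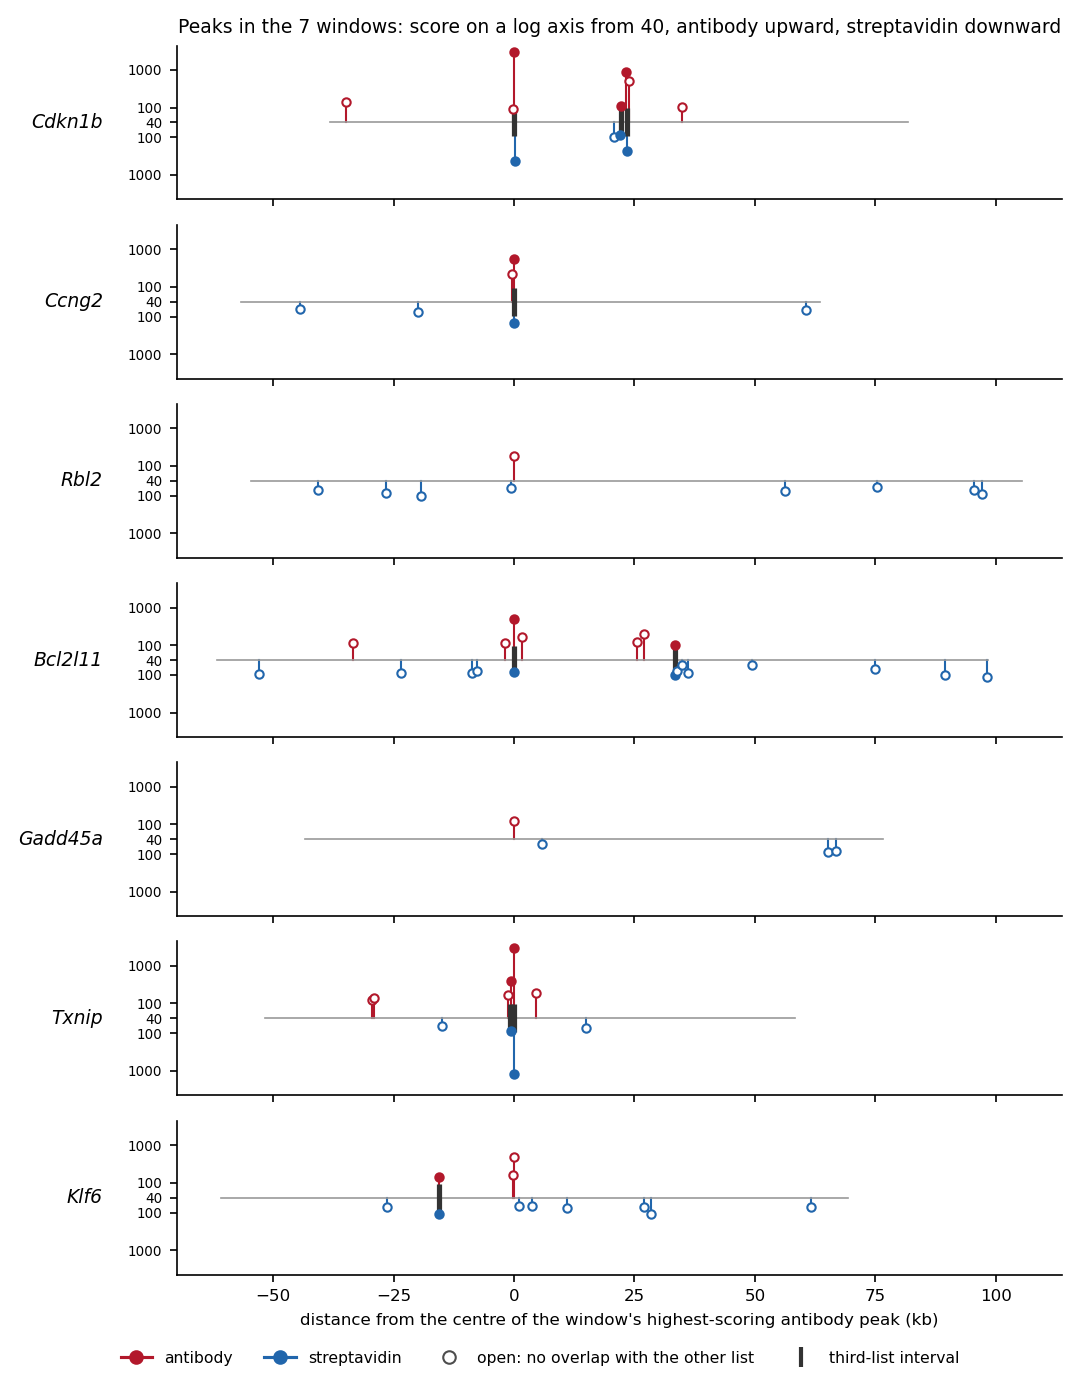
Each row is a window (grey line), with peaks placed by the distance in kb from the centre of its highest-scoring antibody peak. Stems give the score on a log axis that starts at 40, upward for antibody and downward for streptavidin; filled circles mark shared peaks and black bars the intervals of the third list. The tallest pairs are at Txnip (3100 and 1183) and Cdkn1b (3100 and 418), while every peak at Rbl2 and Gadd45a is open.

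Cdkn1b, the inhibitor of cyclin-dependent kinases, had peaks of both methods at 2 separate sites. The first, at chromosome 6, 134848121 to 134848699, scored 3100 with the antibody and 418 with streptavidin. The antibody score was above 99.8% of its list and the streptavidin score above 99.8% of the other, at rank 125. The value 3100 was held by 32 antibody peaks, with 9 above it, so peaks at 3100 are not ranked among themselves. A small antibody peak (134847888 to 134848107, score 93.8) ended 13 bases before the strong one and 27 bases before the streptavidin peak, and was counted as unshared.

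The other Cdkn1b site lay 22.1 to 23.4 kb further along and comprised 2 shared regions. The region at 134871485 to 134871890 scored 861 with the antibody and 231 with streptavidin, above 96.8% and 99.1% of their lists. The region at 134870114 to 134870736 scored 113 and 83.9, and its peaks overlapped by only 55 bases with centres 284 bases apart. Beside the stronger of these, an antibody peak at 134872015 to 134872175 scored 494 and missed the streptavidin peak by 124 bases. The remaining antibody peaks in the window scored 139 and 101, lay 34.9 kb before and 34.8 kb after the strongest one, and had their nearest streptavidin centres 33174.5 and 11367.5 bases away. Of the 4 streptavidin peaks at Cdkn1b, 3 were shared, and the fourth (134868876 to 134869180) scored 97.3.

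Ccng2, which encodes cyclin G2, had a single compact site. Its shared region at chromosome 5, 93696395 to 93696787, scored 540 with the antibody and 147 with streptavidin, above 93.2% and 96.6% of the lists. The centres were 7.5 bases apart, and the antibody peak of 192 bases lay wholly inside the streptavidin peak of 393 bases. A second antibody peak (93696052 to 93696369, score 220) ended 25 bases before the streptavidin peak. The other 3 streptavidin peaks in the window scored 64.1, 75.5 and 67.6 and were 44.4, 19.97 and 60.7 kb from the strong antibody peak. Both antibody peaks and the strongest streptavidin peak of the window thus lay at this site.

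Rbl2, which encodes p130, had no shared region. Its only antibody peak, at chromosome 8, 93594479 to 93594713, scored 187, above 59.0% of the antibody list. A streptavidin peak of low score (93593844 to 93594056, score 61.9, above 18.3% of its list) lay 422 bases from it. The 8 streptavidin peaks of the window scored 58.5 to 101, with none in the top decile, and were spread over the window's length. With peaks under the authors' threshold missing from the lists, weak signal of the other method at an unshared peak cannot be seen here.

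Bcl2l11, which encodes the death inducer Bim, had the most streptavidin peaks, none of them in the top decile of scores. Its strongest antibody peak was shared, in the stretch 127951360 to 127951748 of chromosome 2, where the antibody peak scored 502 and the streptavidin peak 83.1. These were above 92.4% of the antibody list but 64.6% of the streptavidin list. Its other shared region, at 127984845 to 127985157, 33.4 kb away, had the opposite ranks: its antibody score of 101 was above 7.49% of that list, and its streptavidin score of 102 above 82.9%. The 5 unshared antibody peaks scored 114 to 194, and 2 of them flanked the strong peak with centres 1900 bases before and 1566.5 bases after it. The 13 streptavidin peaks scored 54.0 to 116 with a median of 87.6, above the 74.7 of the whole list. The highest, at 128049681 to 128049867, was not shared, and 64745.5 bases separated it from the nearest antibody centre.

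A run of 4 streptavidin peaks, from 127984845 to 127987838, began with the second shared region of Bcl2l11. The scores along it were 102, 77.4, 54.8 and 88.9, and only the first of the 4 overlapped an antibody peak. Neighbouring centres in this run were 350, 1072.5 and 1287 bases apart. In the windows 6 of 44 streptavidin peaks, or 13.6% (5.17 to 27.4), had another streptavidin centre within 1 kb. The whole list had 5.95%, a value inside this interval. Of these 6 peaks, 4 were at Bcl2l11: a pair at the start of the run, and another pair outside it, at 127942857 to 127943963.

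Gadd45a, the gene of a DNA damage response protein, had the fewest peaks. Its only antibody peak, at chromosome 6, 66973333 to 66973499, scored 119, above 21.0% of the antibody list. Its 3 streptavidin peaks scored 53.1, 86.2 and 82.7, and the nearest of them was centred 5730 bases from the antibody peak. The streptavidin score of 53.1 was above only 0.0364% of its list. The peak counts of this window were close to those at the autosomal density (1 against 0.812 and 3 against 2.85).

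Txnip, the thioredoxin-binding protein, had the region with the highest streptavidin score of the 7 windows, level with Cdkn1b in antibody score. At chromosome 3, 96361523 to 96361988, it scored 3100 with the antibody and 1183 with streptavidin, rank 11 in the latter list. Its peaks had nearly the same ends, with 454 of 459 antibody bases overlapping and centres 6 bases apart. A weaker shared region came before it, at 96360951 to 96361168, its antibody centre 700.5 bases from that of the strong one, with scores of 406 and 87.2 and centres 5.5 bases apart. Another antibody peak (96360333 to 96360589, score 164) came before both and missed the streptavidin peak by 370 bases. These 3 antibody peaks spanned less than 2 kb, whereas the 3 others at Txnip scored 121, 143 and 189 and were not shared. The 2 unshared streptavidin peaks of the window scored 62.4 and 72.9.

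Klf6, the zinc finger factor, was the only gene with a shared region whose strongest antibody peak was not shared. That peak, at chromosome 13, 5860568 to 5860881, scored 475, above 91.8% of the antibody list. Another antibody peak (5860367 to 5860534, score 159) ended 33 bases before it. The nearest streptavidin peak scored 68.9 and began 731 bases beyond the strong peak. The shared region lay 15.6 kb away, at 5844902 to 5845255, with an antibody score of 146 and a streptavidin score of 109, above 37.9% and 86.5% of the lists. The highest of the 8 streptavidin scores, 112, belonged to a peak 28.5 kb on the other side, at 5889083 to 5889325.

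**Figure D3:**
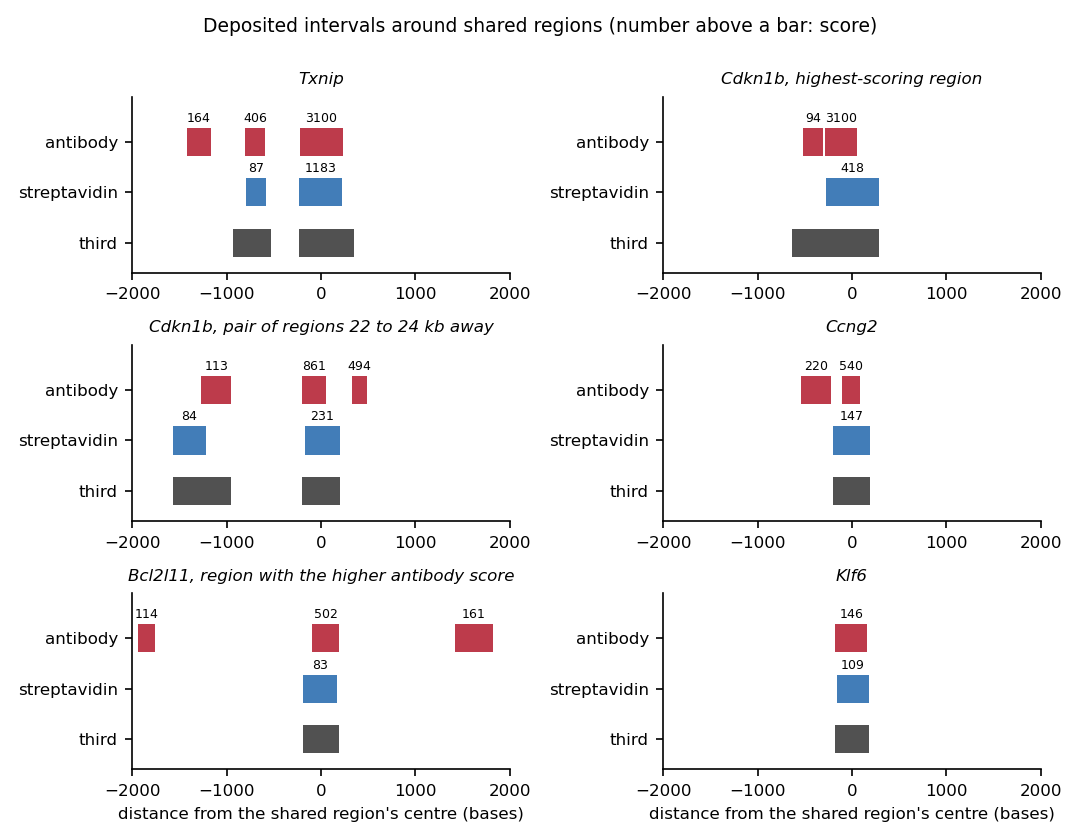
Intervals of the 3 lists drawn to scale within 2000 bases of the centre of a shared region, with the score above each antibody and streptavidin bar. At Txnip and Ccng2 the centres of both methods coincide to within 7.5 bases, while at Cdkn1b and Ccng2 a further antibody peak lies just outside the streptavidin peak.

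Set side by side, the 9 shared regions ranged in antibody score from among the strongest of the list to near its lower end, and in streptavidin score they were all above at least 64.6% of the list. Their median antibody score was 502, against 258 over all 3469 shared regions, and their median streptavidin score 109, against 99.9. The centres were a median of 27.5 bases apart (range 5.5 to 284), against 56, and the regions were a median of 393 bases wide (range 218 to 623), against 394. Only 8 of all shared regions had an antibody score above 3100, the value of the strong regions at Txnip and Cdkn1b. That value was held by 32 antibody peaks, which are not ranked among themselves. In streptavidin score 10 shared regions were above that at Txnip and 123 above that at Cdkn1b. The equal value of 3100 therefore does not show whether the strong regions at Txnip and Cdkn1b differed in antibody signal. Their streptavidin scores, 1183 and 418, were above 99.98% and 99.78% of the streptavidin list. With 9 regions from 5 windows and 1 library per method, none of these differences was tested.

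**Figure D4:**
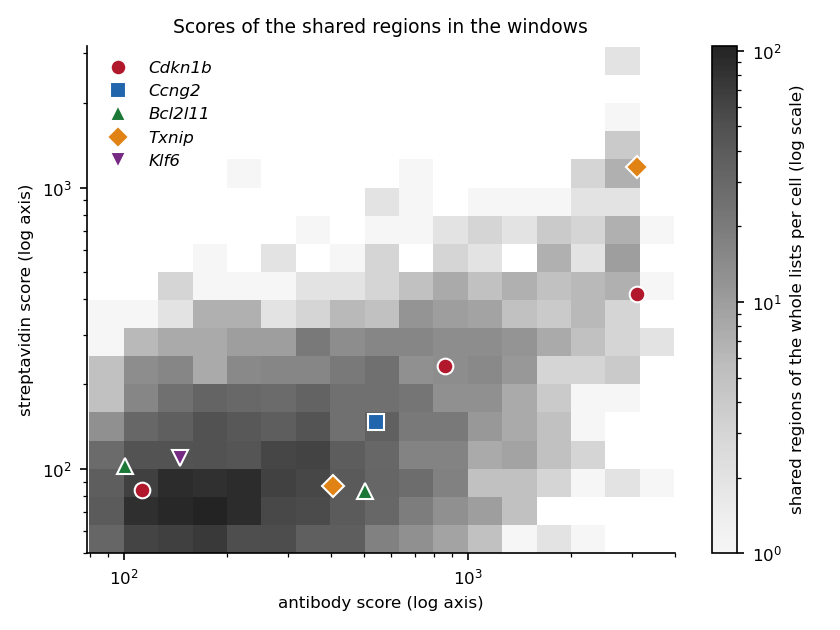
Antibody score (x, log axis) against streptavidin score (y, log axis) of the 9 shared regions in the windows, over the number of all 3469 shared regions per cell in grey. Txnip (3100, 1183) and Cdkn1b (3100, 418) have the highest scores, and the Bcl2l11 region at an antibody score of 502 has a streptavidin score of 83.1.

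Of the 7 top-decile antibody peaks in the windows, 5 were shared, near the 63.6% of all top-decile antibody peaks. The exceptions were the Cdkn1b peak at 494 and the Klf6 peak at 475. All 4 top-decile streptavidin peaks were shared, 2 at Cdkn1b, 1 at Ccng2 and 1 at Txnip, against 24.4% of all top-decile streptavidin peaks. Among the 35 unshared streptavidin peaks the median score was 72.9 and the highest 116, just under the top decile. The 18 unshared antibody peaks had a median score of 151, against 158 for unshared antibody peaks of the whole list.

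Antibody peaks in the windows often came in close groups. Of the 27 peaks, 13 had another antibody centre within 1 kb, or 48.1% (28.7 to 68.1), against 16.4% of the whole list. They were 5 peaks at Txnip, 4 at Cdkn1b, 2 at Ccng2 and 2 at Klf6, and none was at Bcl2l11, where the closest antibody centres were 1543.5 bases apart. Both peaks of a close pair are counted among the 13. The shares in this paragraph were not adjusted for the density of antibody peaks in the windows, 4.34 times the autosomal density. When peaks within 1 kb were joined, 19 antibody peaks remained and 7 of them, or 36.8% (16.3 to 61.6), were shared, against 22.4% of the whole list joined in the same way. Some unshared antibody peaks lay close to a streptavidin peak without overlapping it. Of the 18 unshared antibody peaks, 6 were centred no more than 1 kb from a streptavidin centre, compared with 10.4% over the whole list. Gaps of 25 bases at Ccng2, 27 and 124 at Cdkn1b, 370 at Txnip, 422 at Rbl2 and 731 at Klf6 separated these 6 from the nearest streptavidin peak. With centres within 1 kb in place of overlap, 15 of 27 antibody peaks, or 55.6%, were shared, against 30.0% of the whole list, and Rbl2 was then among them.

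The third list, whose making is not described in the sources used here, followed the shared regions of the windows. Over the autosomes 17489 of 20038 stretches of 120 kb held no third-list interval, and the same number held no shared region. Because it is named for both methods, the third list is not taken as separate evidence for the shared regions. Each of the 9 shared regions was met by exactly 1 of its intervals, and no interval lay elsewhere in the windows. Of these intervals 6 were identical to the union of the overlapping peaks, as were 57.0% of all intervals of the third list. The exceptions were 1 at Cdkn1b and both at Txnip. At Cdkn1b the interval of 928 bases reached 349 bases further to the left than the strong region, and so took in the small antibody peak next to it. At Txnip the interval over the strong region reached 118 bases further to the right, and that over the weaker region 125 bases to the left and 56 to the right. The left end at Cdkn1b lay before every peak of either list at that site.

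Some peaks close to the edges of the windows affect what was counted. At Cdkn1b a strong shared region lay 29.9 kb outside the window's start, scoring 2539 with the antibody and 561 with streptavidin (antibody peak 134779911 to 134780289). At Ccng2 a shared region lay 4.16 kb outside the start, with scores of 342 and 279 (antibody peak 93635704 to 93635968). At Gadd45a an antibody peak of score 184 lay 2.30 kb outside the end. The peaks nearest to an edge on the inside were a streptavidin peak at Bcl2l11 (score 116, 0.226 kb from the end), one at Ccng2 (67.6, 2.74 kb) and an antibody peak at Cdkn1b (139, 3.35 kb). With 50 kb added on both sides of every window, 12 of 33 antibody peaks were shared. In RefSeq the neighbouring protein-coding genes were Gpr19 and Apold1 for Cdkn1b, Acoxl and Spdye4c for Bcl2l11, Hjv and Polr3gl for Txnip, and Akr1e1 and Pitrm1 for Klf6. Which gene a peak acts on was not tested.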

How the data were processed

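Foxo1-bound chromatin of nTreg cells was sequenced after antibody or streptavidin capture, with 1 library per group. The tools named in the submitters' processing notes are Bowtie 0.12.7, MACS 1.4 and CASAVA 1.4, and the build is mm9; roles and settings are not named. The authors deposited intervals, with a score per peak in the antibody and streptavidin lists, whose names state a false discovery rate of 0.01. The deposited score was taken as MACS output for that peak and ranked within its list only. The lists hold no read counts, so depth is unknown. Pooling of libraries and the control used for calling peaks are not given in the sources used here.

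Peaks were taken by centre in the windows in SciPy 1.17.1 and NumPy 2.4.6 under Python 3.11.15, and figures drawn with Matplotlib 3.10.9. The overlap code was tested on simulated data. Coordinates count from 1. Shares have exact 95% binomial (Clopper-Pearson) intervals. No test was made. The members, lists and motifs were chosen with earlier results of these data known, so counts in the windows are descriptions. Named in each window were all shared regions, the highest-scoring peak of each list and all third-list intervals, and other peaks were named after their values were seen. Alternatives changed the overlap, score threshold, window, joining of neighbours, density background and genes included.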

Additional observations from a re-analysis of the deposited data

How the results depend on the processing

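Of 99 recomputed values, 92 stayed within the main value's 95% exact interval or, for counts, within 1.5 times the main count, and 7 did not. Many of these values leave out only 1 of the 7 windows, and the interval of the antibody shared percentage was wide (16.5 to 54.0). Staying within such limits is therefore weak evidence of stability. With the higher-scoring 50% of each list, antibody peaks fell from 27 to 12 and streptavidin peaks from 44 to 25. With scores of at least 100 in both lists, streptavidin peaks numbered 10 and their shared percentage was 60.0, against 20.5 in all peaks, while that of the whole streptavidin list was 16.1, against 6.20. That threshold leaves fewer peaks by construction. In the central 50% of each window there were 28 streptavidin peaks, and the antibody density ratio was 7.39. The lowest antibody density ratio, 3.01, came with windows extended by 50 kb on both sides. With centres within 1 kb, 55.6% of antibody peaks were shared, since that definition also counts peaks that do not overlap. Leaving out each gene in turn gave 30.0% to 35.0% of antibody and 15.0% to 25% of streptavidin peaks shared, and density ratios of 3.69 to 5.05 and 1.72 to 2.16. At scores of at least 100, 23.1% of antibody peaks in the windows were shared, against 11.5% of the whole list. No paired analysis was possible because each group has 1 library, and no replicate could be left out. Without the sequencing depth, the number of peaks that fell just under the authors' threshold cannot be measured.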

Other observations

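Beyond the end of the Ccng2 window the lists were empty over a long stretch of chromosome 5. The next streptavidin centre lay 2504 kb past the window's end and the next antibody centre 2830 kb past it. In RefSeq the protein-coding gene after Ccng2 is Pramel33, a member of a multigene family. Why the stretch beyond the Ccng2 window held no peaks was not tested. Around Rbl2 the nearest intervals of the third list were 2319 kb before the window and 2837 kb after it, although the window held 8 streptavidin peaks.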
